A study of Mus musculus with 57 samples.

Results

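The 10 genes described here, of 18088 in the deposited table, code for heat shock proteins and their closest partners and were followed across the 12 groups of a mouse prefrontal cortex RNA-seq study. They were taken as the table's entries whose Ensembl identifiers carry the symbols Hspa1a, Hspa1b, Hspa8, Hsp90aa1, Hsp90ab1, Dnajb1, Hsph1, Hspb1, Hspe1 and Hspd1, a choice made by name and not by measured values. All 10 were in the table and all 10 passed the filter on low values. The set is called cytosolic heat shock chaperones, a name that applies to the products of 8 of them: Hspd1 and Hspe1 code for the chaperonin Hsp60 and its co-chaperonin Hsp10, which work in the mitochondrial matrix. Only transcripts were measured, not protein.

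The tissue came from C57BL/6J mice on postnatal day 25, male or female, that carried 1 copy of the Shank3 delta C allele (heterozygous, HT) or none (wild type, WT). Shank3 codes for a scaffold protein of excitatory synapses, and the name of the allele marks a deletion at its C-terminal end. Lithium, a mood stabiliser, fluoxetine, a serotonin reuptake inhibitor, or vehicle reached the pups through the milk of their mothers for 3 weeks, on postnatal days 3 to 24. The 12 groups were thus lithium, fluoxetine or vehicle, in HT or WT mice, in males or females. They held 56 libraries: 9 groups of 5, 2 groups of 4 (lithium HT males and lithium WT females) and 1 group of 3 (vehicle HT males). Neither litters nor drug doses are given in the sources used here. Pups of a litter share a dam, and p-values here treat the samples as separate, so they measure only the spread between these samples.

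Heat shock proteins keep other proteins folded. Hsp70 proteins bind exposed stretches of unfolded chains with the help of J-domain partners such as the product of Dnajb1 and of Hsp110 proteins such as the product of Hsph1, which exchange their nucleotide, while Hsp90 proteins receive partly folded clients such as kinases and steroid receptors. The transcription factor Hsf1 drives these genes through heat shock elements, repeats of the letters GAA in alternating orientation, when misfolded protein builds up. In the brain Hspa8, Hsp90aa1 and Hsp90ab1 are made abundantly without stress, and Hspa1a, Hspa1b, Dnajb1 and Hspb1 are the ones best known for induction by heat or other stress.

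The start of the stress-inducible genes is shown because these elements were looked for there and because it makes plain how alike Hspa1a and Hspa1b are. The 250 bases before the transcription start were read from RefSeq promoters (GRCm38.p6), in which 7 of the 10 genes were matched, with 10 start sites. Sequences run 5′ to 3′ on the strand of the gene, in lower case. Capitals mark a match to GAANNTTC or TTCNNGAA, a pair of inverted GAA repeats. Both motifs read the same on either strand, and matches to one can overlap matches to the other. Hspa1a lies on the minus strand with its window at chr17:34972157-34972406, Hspa1b on the minus strand at chr17:34959239-34959488 and Hspb1 on the plus strand at chr5:135887669-135887918. Of Hspe1, on the plus strand, only the 30 bases at chr1:55088053-55088082 are shown, which hold 3 matches that overlap.
Hspa1a: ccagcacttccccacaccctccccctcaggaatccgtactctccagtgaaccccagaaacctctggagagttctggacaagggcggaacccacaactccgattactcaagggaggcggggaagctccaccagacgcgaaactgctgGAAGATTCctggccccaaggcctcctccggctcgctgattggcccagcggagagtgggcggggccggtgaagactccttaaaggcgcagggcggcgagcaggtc
Hspa1b: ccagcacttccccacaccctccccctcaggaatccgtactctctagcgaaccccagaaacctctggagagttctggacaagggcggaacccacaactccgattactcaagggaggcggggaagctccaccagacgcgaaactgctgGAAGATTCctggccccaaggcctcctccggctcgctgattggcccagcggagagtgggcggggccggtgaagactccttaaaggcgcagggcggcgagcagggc
Hspb1: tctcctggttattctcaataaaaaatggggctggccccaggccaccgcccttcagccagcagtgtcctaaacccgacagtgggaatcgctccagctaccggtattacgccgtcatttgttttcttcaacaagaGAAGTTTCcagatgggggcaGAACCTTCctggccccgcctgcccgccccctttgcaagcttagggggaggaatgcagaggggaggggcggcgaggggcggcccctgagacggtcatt
Hspe1: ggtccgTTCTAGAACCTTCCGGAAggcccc

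The windows of Hspa1a and Hspa1b were identical at 247 of 250 bases (98.8%). With the base of Hspa1a first and positions counted from 1 at the 5′ end, they differed by C44T, T47C and T249G. Each held a single match, GAAGATTC, 104 bases before the start. Hspb1 held a match 117 bases and another 97 bases before its start. The 3 matches of Hspe1 lay 89, 84 and 79 bases before its start, and the same bases lie before the second listed start of Hspd1, which is read in the opposite direction from the other strand. Hsph1 had 1 match and neither window of Dnajb1 held these letters. A match was found for 6 of the 7 genes and in 7 of 10 windows. Among the 250-base windows of all 32851 promoters in the RefSeq table, 6.69% held GAANNTTC, 7.17% held TTCNNGAA and 12.8% held at least one of them. A match describes the letters and does not show binding.

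The near-identity extends into the transcripts. Hspa1a (chr17:34969190-34972156, minus strand) and Hspa1b (chr17:34956436-34959238, minus strand) lie side by side on chromosome 17, each coding for an inducible Hsp70. Their longest open reading frames, of 1926 and 1929 nucleotides, were 99.43% identical, with 8 mismatches and 3 gap bases. How reads were divided between them therefore rests on short differing stretches, and each of their separate values is uncertain for that reason. Hspd1 (chr1:55077835-55088243, minus strand) and Hspe1 (chr1:55088132-55091307, plus strand) share a bidirectional start on chromosome 1 and overlap by 112 bases. The annotation names 6 pseudogenes after Hspe1 and 5 after Hspd1, and no pseudogene after the other 8, so reads of these 2 genes could also have been split with copies.

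The constitutive members were among the most abundant transcripts of the tissue. Divided by transcript length, the mean normalised count per kilobase was 21898 for Hspa8, the constitutive Hsp70, 14626 for Hsp90ab1, the constitutive Hsp90, and 9177 for Hsp90aa1, its stress-responsive partner. It was 2132 for Hsph1, 1791 for Hspd1, 1409 for Hspe1 and 531 for Dnajb1. At the low end it was 128 for Hspb1, which codes for the small heat shock protein Hsp27 (Hsp25 in mouse), 99.9 for Hspa1a and 96.1 for Hspa1b. Over the 56 libraries the ranges of neighbours in this order overlapped between Hspa8 (16687 to 28197 per kilobase) and Hsp90ab1 (12019.7 to 20728), among Hsph1, Hspd1 and Hspe1 (1152 to 2719), and among Hspb1, Hspa1a and Hspa1b (53.5 to 252). The other neighbours did not overlap. Together the 10 genes took 0.39% to 0.608% of the reads of a library (median 0.463%), and Hspa8, Hsp90aa1 and Hsp90ab1 made up 87.6% to 89.6% of that.

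The spread of the genes inside a group also differed. The within-group SD on the log2(normalised count + 1) scale was 0.43 for Hspa1b, 0.36 for Hspb1 and 0.309 for Hspa1a. It lay between 0.102 and 0.163 for the other 7 genes, against a median of 0.195 over all 18026 genes tested. The highest library held 4.12 times the lowest for Hspa1b, 3.85 times for Hspb1 and 2.87 times for Hspa1a, and 1.49 to 2.02 times for the rest. The smallest number of reads behind any value was 52, for Hspb1, and every Hspa8 value rested on at least 33504 reads.

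Library totals ran between 22984556 and 35969254 reads. All 6 markers of cortical excitatory neurons and all 5 of interneurons were present in every library, with Slc17a7 between 28646 and 61297 normalised counts. Markers of neighbouring tissue varied: the 5 olfactory bulb markers (5 of 5 in the table, none at 0) summed to between 239 and 14785 normalised counts per library. The female HT vehicle library 1 carried choroid plexus markers (6 of 8 in the table) at 28.8 times the average library. The female HT lithium library 5 carried mitochondrially encoded transcripts at 0.36 times the average, together with the strongest GC slope, which is the rise in log2 value for each 10 percentage points of transcript GC content relative to the average library. Results that change without these 2 libraries are given with and without them. In whole tissue, fewer cells of a type and less RNA per cell cannot be told apart, which applies to every difference that follows.

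No chaperone gene was called different in most comparisons, and those called by limma, the main test, were lower under a drug, whereas edgeR and DESeq2 also called some of the stress-inducible genes higher. Called means a limma adjusted p under 0.05, with p-values adjusted over all 18026 genes tested, and all differences are log2 fold changes of normalised counts with 1 added, given ± their standard error. With the sexes averaged, 1 of the 10 genes, Hspe1, was lower in lithium WT than in vehicle WT mice, where 11.7% of all genes were called. Of the 10, 0 were called for lithium in HT mice (9.77% of all genes), 0 for fluoxetine in WT mice (5.18%) and 0 for fluoxetine in HT mice (0%). At an unadjusted p under 0.05 limma had 3 of the 10 for lithium WT, 4 for lithium HT, 2 for fluoxetine WT and 2 for fluoxetine HT mice. edgeR called 2 for lithium WT mice and 0 in each of the other 3. DESeq2 called 2 for lithium WT mice, both lower, 3 for lithium HT mice and 0 for fluoxetine in either genotype. Its 3 for lithium HT mice were Hspa1a, higher at 0.44 (DESeq2 adjusted p = 0.0301), Hspb1, higher at 0.47 (0.0446), and Hsp90aa1, lower at -0.17 (0.0486). The median change over the 10 genes was 0.06 for lithium in WT, 0.06 for lithium in HT, 0.13 for fluoxetine in WT and 0.09 for fluoxetine in HT mice. Over all genes the medians were -0.00291, 0.00207, -0.0073 and 0.000865. Comparisons within a genotype share their vehicle libraries. Fluoxetine HT females had the highest group mean of all 12 for 8 of the 10 genes, the exceptions being Hspb1, highest in fluoxetine WT females, and Hspe1, highest in vehicle WT females. Vehicle WT males had the lowest mean for 4 of the 10 and vehicle HT mice for 5. The share of all genes with their highest or lowest mean in these groups was not examined. Many of the 10 were also high in the same libraries, as given below, so these counts are not of separate results. In fluoxetine HT females limma called 0 of the 10 against vehicle.

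**Figure D1:**
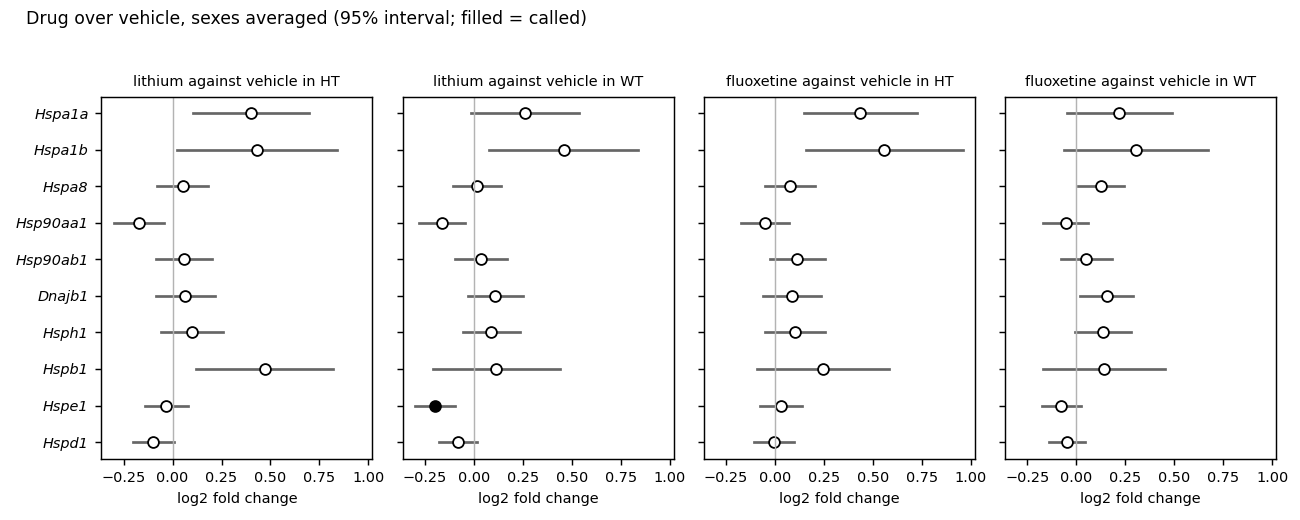
Log2 fold change of each of the 10 genes (x axis, with 95% intervals) in the 4 comparisons of a drug with vehicle, sexes averaged. Filled points passed the limma test at an adjusted p under 0.05; the only filled point is Hspe1 in lithium WT mice, at -0.20, while Hspa1a and Hspa1b have positive estimates with wide intervals in all 4 comparisons.

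Within a sex the calls were spread unevenly. In females, 2 of the 10 were lower under lithium in WT mice (6.62% of all genes called), 1 was lower under lithium in HT mice (10.5%), 2 were lower under fluoxetine in WT mice (12.1%) and 0 were called under fluoxetine in HT mice (0.727%). In males, 0 of the 10 were called under lithium in WT mice (2.3% of all genes), lithium in HT mice (0.0166%), fluoxetine in WT mice (1.03%) and fluoxetine in HT mice (0%). At an unadjusted p under 0.05 the males had 0, 1, 3 and 0 of the 10 in that order, and fluoxetine HT females had 5. In the males edgeR and DESeq2 called 0 of the 10 in all 4 comparisons, and in fluoxetine HT females each called 2, Hspa1a and Hspa1b, both higher. Males minus females, 2 of the 10 differed for fluoxetine in WT mice (7.74% of all genes), and 0 for lithium in HT (0.172%), lithium in WT (0%) or fluoxetine in HT mice (0.0277%), where limma had 1, 2 and 2 at an unadjusted p under 0.05 and neither edgeR nor DESeq2 called any.

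Hspa1b, of the stress-inducible Hsp70 pair, had the widest span of values of the 10 genes as a ratio of highest to lowest library. In fluoxetine HT females Hspa1b was at 212, 219, 569, 559 and 507 normalised counts, against 191, 174, 163, 199 and 261 in vehicle HT females. The fluoxetine libraries fell into 3 high ones and 2 that lay inside the range of vehicle, so the groups overlapped. The estimate was 0.94 ± 0.26 (95% interval 0.42 to 1.46, limma adjusted p = 0.0676), a 1.92-fold difference that did not pass the test. Hspa1a was at 262, 267, 500.2, 517 and 532 in fluoxetine HT females, against 242, 228, 189, 273 and 282 in vehicle HT females. Its 3 high libraries were the same 3, and its estimate was 0.72 ± 0.19 (95% interval 0.34 to 1.09, limma adjusted p = 0.0516). Summed into 1 feature, the pair gave 0.83 ± 0.22 (limma adjusted p = 0.0541).

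These 2 estimates lay near the threshold and moved across it with the model. With edgeR on recovered reads the adjusted p was 0.0293 for Hspa1a and 0.0313 for Hspa1b, and with DESeq2 it was 0.00606 and 0.00991. With the limma correction for GC content and length it was 0.0836 for Hspa1a and 0.115 for Hspa1b. Both passed when fluoxetine HT female library 1 was left out (limma adjusted p = 0.0246 for Hspa1a and 0.0298 for Hspa1b), without its library 2 (0.021 and 0.0277) and without vehicle HT female library 5 (0.0301 and 0.0333). Libraries 1 and 2 are the low ones of the fluoxetine group. Mean GC slope was -0.01 ± 0.06 (SD, n = 5) in fluoxetine HT females and -0.04 ± 0.05 (SD, n = 5) in vehicle HT females. Within the fluoxetine group the 3 high libraries, numbers 3, 4 and 5, had GC slopes of 0.00413, 0.0296 and 0.0629, and the 2 low ones, numbers 1 and 2, had -0.0838 and -0.0432. Their myelin marker levels were 1.11, 1.02 and 1.25 times the average over libraries in the 3 high ones and 0.998 and 0.618 in the 2 low ones. The 3 libraries high in the Hsp70 pair were thus the 3 highest of their group in GC slope and in myelin markers. Red blood cell markers (5 of 5 in the table, none at 0) summed to 3489 to 6069 normalised counts in fluoxetine HT females and 7651 to 17097 in vehicle HT females, and those groups did not overlap. The part of the slope in the difference was not tested beyond the corrected fit, and that of the markers was not tested.

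In HT males fluoxetine left Hspa1b at 206, 206, 272, 291 and 168, against 196, 195 and 204 in vehicle HT males. The fluoxetine values surrounded the 3 vehicle values, and the estimate was 0.17 ± 0.30 (95% interval -0.43 to 0.78, limma adjusted p = 1). The male minus female difference of this effect was -0.77 ± 0.40 (95% interval -1.57 to 0.03, limma adjusted p = 0.77) for Hspa1b, so a difference between the sexes was not shown. In WT females Hspa1b was at 157, 338, 480.5, 211 and 267 under fluoxetine, against 226, 201, 178, 243 and 238 under vehicle. In WT males it was at 193, 317, 234, 330.0 and 272 under fluoxetine, against 206, 205, 199, 263 and 213 under vehicle. In both sexes some fluoxetine libraries stood well above vehicle and others lay within or under it. The WT estimates were 0.31 ± 0.18 (95% interval -0.06 to 0.68, limma adjusted p = 0.365) for Hspa1b and 0.22 ± 0.13 (95% interval -0.05 to 0.49, limma adjusted p = 0.373) for Hspa1a, sexes averaged.

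Under lithium the same pair again reached above the vehicle libraries without passing the limma test. In HT females Hspa1b was at 325, 207, 203, 278 and 618 under lithium, against 163 to 261 under vehicle. The highest lithium library, library 5, is the one with low mitochondrially encoded transcripts. In HT males it was at 149.9, 219, 325 and 291 under lithium, against 195 to 204 under vehicle. In females 2 lithium libraries lay inside the vehicle range. In males 3 lithium libraries lay above all vehicle ones and the other under them, with the lowest Hspa1b value of all 56 libraries. The HT estimates were 0.43 ± 0.20 (95% interval 0.02 to 0.84, limma adjusted p = 0.186) for Hspa1b and 0.40 ± 0.15 (95% interval 0.11 to 0.70, limma adjusted p = 0.073) for Hspa1a, sexes averaged. Without the 2 libraries that stand apart the Hspa1b estimate was 0.30 (limma adjusted p = 0.397). DESeq2 called Hspa1a higher with the sexes averaged, as given above, and in lithium HT females it called both, Hspa1a at 0.52 (DESeq2 adjusted p = 0.0436) and Hspa1b at 0.72 (0.0486). In limma Hspa1a passed without lithium HT female library 2 (limma adjusted p = 0.0418) and without lithium HT male library 1 (0.0311). Mean GC slope was 0.06 in lithium HT males and 0.05 in lithium HT females, against -0.07 and -0.04 in vehicle HT males and females. Those 2 left-out libraries had the lowest slopes of their groups, -0.111 and -0.0411, with Hspa1b at 207 and 149.9. Lithium HT female library 5 had 0.254, and male libraries 2, 3 and 4 had 0.101, 0.12 and 0.0619. The part of the slope in these estimates was not tested beyond the corrected fit, in which limma called neither gene.

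In WT mice Hspa1b did not pass under lithium either. Lithium WT females were at 245, 375, 274 and 356, against 178 to 243 in vehicle WT females. Lithium WT males were at 232, 361, 369, 254 and 248, against 199 to 263 in vehicle WT males. All 4 lithium WT females lay above the 5 vehicle WT females, and 2 of the 5 lithium WT males lay above all vehicle WT males. The estimates were 0.46 ± 0.19 (95% interval 0.08 to 0.84, limma adjusted p = 0.107) for Hspa1b and 0.26 ± 0.14 (95% interval -0.02 to 0.53, limma adjusted p = 0.229) for Hspa1a, sexes averaged. Fitted on these 4 groups alone, the limma adjusted p was 0.00748 for Hspa1b and 0.0484 for Hspa1a. Across the whole series Hspa1b lay between 150 and 618 normalised counts in the 38 drug-treated libraries and between 163 and 263 in the 18 vehicle libraries. Hspa1a lay between 194 and 540.1 in the drug-treated and between 188 and 299 in the vehicle libraries. The upper end was set by 5 libraries: 3 fluoxetine HT females at 569, 559 and 507 normalised counts of Hspa1b, 1 lithium HT female at 618 and 1 fluoxetine WT female at 480.5, above the next highest at 375.

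**Figure D2:**
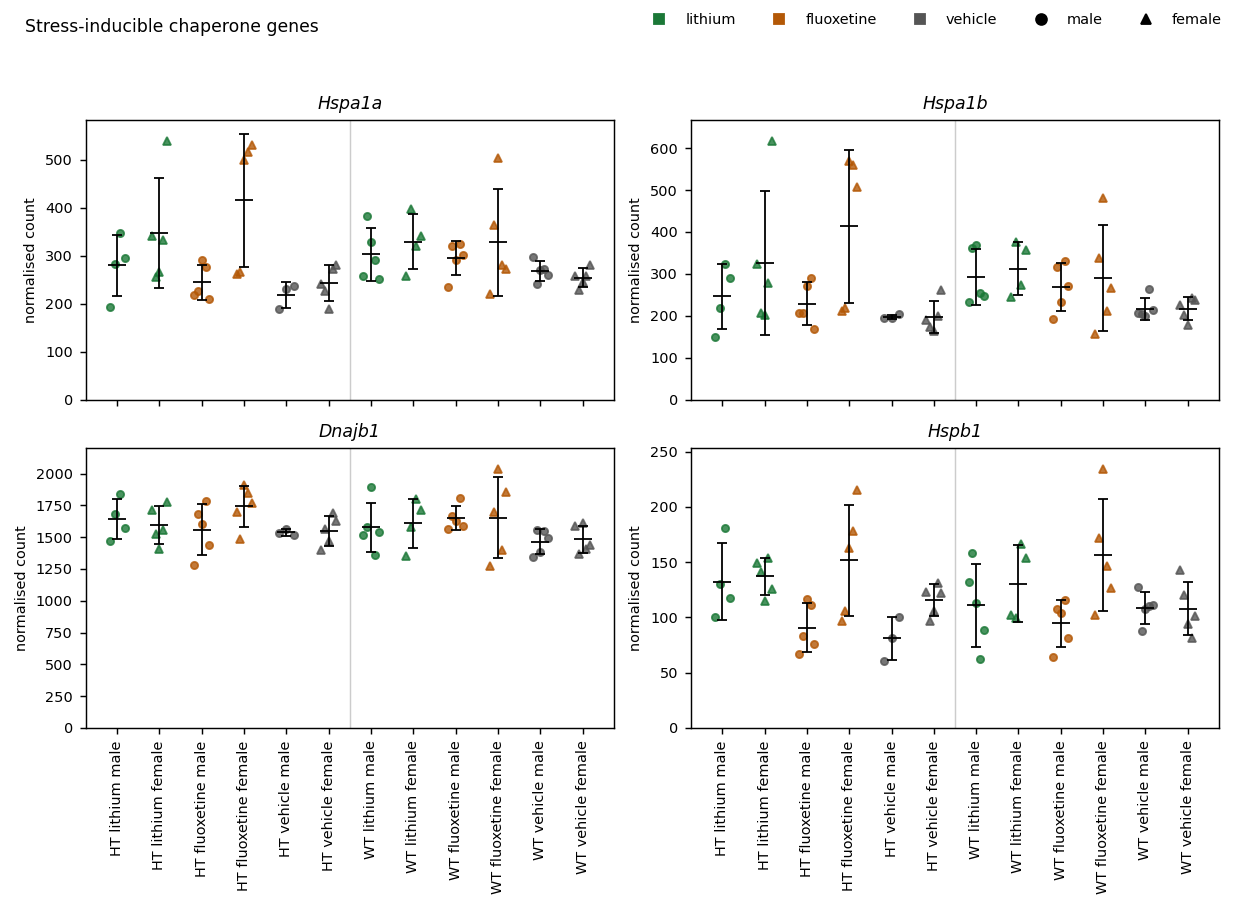
Normalised counts (y axis, starting at 0) of Hspa1a, Hspa1b, Dnajb1 and Hspb1 in the 12 groups. Each circle (male) or triangle (female) is 1 library and black marks give the mean ± SD. The 3 fluoxetine HT female libraries at 507 to 569 normalised counts of Hspa1b are apart from the other 2 of their group, at 212 and 219.

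Dnajb1, the J-domain partner that hands substrates to the inducible Hsp70, was called in none of the 24 comparisons. It lay between 1272 and 2037 normalised counts over the 56 libraries, both ends in fluoxetine WT females. These were at 1272, 1698, 2037, 1403 and 1859, against 1585, 1366, 1611, 1409.7 and 1437 in vehicle WT females. The fluoxetine values surrounded the vehicle ones. In fluoxetine WT males Dnajb1 was at 1563, 1665, 1627, 1809 and 1586, against 1345, 1558, 1379.6, 1551 and 1492 in vehicle WT males, with every fluoxetine male above the highest vehicle male. The estimate for fluoxetine in WT mice was 0.16 ± 0.07 (95% interval 0.02 to 0.29, limma adjusted p = 0.174), and it passed without fluoxetine WT female library 1 (limma adjusted p = 0.0484). It was 0.09 for fluoxetine in HT, 0.07 for lithium in HT and 0.11 for lithium in WT mice, with limma adjusted p of 0.892, 0.66 and 0.337.

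Hsph1, the Hsp110 that acts as nucleotide exchange factor for Hsp70, had its lowest value in the same library. Fluoxetine WT females were at 5106, 7742, 10296, 6702 and 9080.4 normalised counts, against 7647, 7547, 8315, 7920.0 and 7490.2 in vehicle WT females. Fluoxetine WT males were at 9239, 9083, 8851, 9239 and 8278, against 7152, 8238, 7299.6, 6332 and 6963 in vehicle WT males. The male groups did not overlap, with each fluoxetine male above each vehicle male, whereas the female fluoxetine values lay on both sides of vehicle. The male estimate was 0.32 ± 0.10 (95% interval 0.11 to 0.52, limma adjusted p = 0.0969), short of the threshold, and the female one was -0.04 ± 0.10 (95% interval -0.24 to 0.16, limma adjusted p = 0.839). Their difference, males minus females, was 0.36 ± 0.14 (95% interval 0.07 to 0.64, limma adjusted p = 0.106). With the sexes averaged it was 0.14 ± 0.07 (95% interval -0.00464 to 0.28, limma adjusted p = 0.274), and without fluoxetine WT female library 1 it passed, at 0.21 (limma adjusted p = 0.0271). In that library the olfactory bulb markers were at 4.06 times the average over libraries. It was not the highest of its group: library 4, with Hsph1 at 6702, was at 4.41. Library 2, with Hsph1 at 7742, was at 2.74, and libraries 3 and 5, the highest in Hsph1, were at 0.127 and 0.0769. In HT females under fluoxetine Hsph1 was at 8874 to 9713, wholly above the 6966 to 8263 of vehicle HT females, with an estimate of 0.26 ± 0.10 (95% interval 0.06 to 0.46, limma adjusted p = 0.264).

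Hspa8, the housekeeping Hsp70, was called in none of the 24 comparisons. With the sexes averaged its estimates were 0.13 ± 0.06 (95% interval 0.01 to 0.25, limma adjusted p = 0.204) for fluoxetine in WT and 0.08 ± 0.06 (95% interval -0.05 to 0.20, limma adjusted p = 0.886) for fluoxetine in HT mice. For lithium they were 0.02 ± 0.06 (95% interval -0.10 to 0.14, limma adjusted p = 0.905) in WT and 0.05 ± 0.06 (95% interval -0.08 to 0.18, limma adjusted p = 0.701) in HT mice. Group means ran between 48059 normalised counts in vehicle WT males and 56937 in fluoxetine HT females, and single libraries between 39948 in a lithium WT male and 67503 in a fluoxetine WT female.

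Hsp90aa1 was lower under both drugs in WT females, while its constitutive counterpart Hsp90ab1 was called in no comparison. The difference between the 2 genes was not tested. Lithium WT females were at 25636, 29595, 29984 and 26112 normalised counts of Hsp90aa1, against 33568, 33406, 33944, 33518 and 32786 in vehicle WT females. The groups did not overlap, and the vehicle values lay close together. The change was -0.27 ± 0.08 (95% interval -0.44 to -0.10, limma adjusted p = 0.042). Fluoxetine WT females were at 24301, 25581, 32329, 25565 and 33009. Their 3 lower libraries were far under vehicle and the highest of the other 2 lay within it. The change was -0.26 ± 0.08 (95% interval -0.42 to -0.10, limma adjusted p = 0.0238). The 2 comparisons share the 5 vehicle libraries.

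Both calls depended on single libraries and on the correction for GC content. For lithium in WT females the limma adjusted p of Hsp90aa1 was 0.143 without lithium library 1 and 0.167 without lithium library 4. Without vehicle WT female libraries 1, 2, 3, 4 and 5 it was 0.0706, 0.07, 0.0807, 0.0647 and 0.0551. With the GC content and length correction the lithium estimate was -0.21 (limma adjusted p = 0.205) and the fluoxetine estimate -0.15 (0.319), so neither passed. For fluoxetine the limma adjusted p was 0.0894, 0.0967 and 0.0832 without fluoxetine libraries 1, 2 and 4, and 0.0536 without vehicle library 3. Fitted on the compared groups alone, neither passed either, with 0.0601 for lithium and 0.234 for fluoxetine.

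Measures of the libraries moved with the fluoxetine result. Mean GC slope was 0.10 ± 0.06 (SD, n = 5) in fluoxetine WT females and -0.06 ± 0.08 (SD, n = 5) in vehicle WT females. Olfactory bulb markers (5 of 5 in the table, none at 0) summed to 250.5 to 14785 normalised counts in fluoxetine WT females and 360.2 to 7634 in vehicle WT females. The 3 fluoxetine libraries low in Hsp90aa1, numbers 1, 2 and 4, were also the 3 with the highest olfactory levels of that group, at 4.06, 2.74 and 4.41 times the average over libraries. The same 3 were the lowest of the group in excitatory neuron markers, at 0.594, 0.821 and 0.546 times the average, against 1.12 and 1.28 in libraries 3 and 5. Those markers (6 of 6 in the table, none at 0) summed to 87934 to 189837 normalised counts in fluoxetine WT females and 118825 to 164971 in vehicle WT females. Over all 56 libraries, with group means subtracted, Hsp90aa1 went with that level (Pearson r 0.58, Spearman rho 0.56, r 0.51 without the 2 farthest libraries). Myelin markers (8 of 8 in the table, none at 0) summed to 55083 to 148970.0 normalised counts in fluoxetine WT females and 142173 to 177068 in vehicle WT females. With the sexes averaged 5 of those 8 were called lower by limma under fluoxetine in WT mice. The part of the neuron and myelin levels in the result was not tested. With the olfactory level as a covariate the estimate was -0.25 (limma adjusted p = 0.00581), and with that covariate and the GC correction together it was -0.13 (0.165). The last combination was chosen after seeing the data.

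In males Hsp90aa1 was not called. Fluoxetine WT males were at 33636, 30871, 31811, 30628 and 29578, against 28679, 32184, 27993, 25013 and 27418 in vehicle WT males. All 5 fluoxetine males lay above 4 of the 5 vehicle males, and the estimate was 0.15 ± 0.08 (95% interval -0.01 to 0.31, limma adjusted p = 0.356). The fluoxetine effect, males minus females, was 0.41 ± 0.11 (95% interval 0.19 to 0.64, limma adjusted p = 0.0207). That difference did not pass with the GC content and length correction. Vehicle WT males averaged 28258 ± 2593 (SD, n = 5) normalised counts and vehicle WT females 33444 ± 419.8 (SD, n = 5), with every male under every female. That difference between the sexes was not tested. Mean GC slope was 0.07 ± 0.06 (SD, n = 5) in vehicle WT males and -0.05 ± 0.11 (SD, n = 5) in fluoxetine WT males. Against vehicle the slope was thus lower under fluoxetine in WT males and higher in WT females. Lithium WT males were at 25078, 24910.1, 28776, 25312 and 31752, within the range of vehicle males for all but the lowest, and the sex difference of the lithium effect was 0.21 ± 0.12 (95% interval -0.02 to 0.44, limma adjusted p = 0.643).

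With the sexes averaged Hsp90aa1 lay just outside the threshold under lithium in both genotypes. The estimate was -0.16 ± 0.06 (95% interval -0.28 to -0.05, limma adjusted p = 0.0555) in WT mice and -0.17 ± 0.06 (95% interval -0.30 to -0.05, limma adjusted p = 0.0707) in HT mice. In WT mice it passed in 7 of 15 alternative settings. Among them were edgeR (adjusted p = 0.0452), DESeq2 (0.0389) and limma without the 2 libraries that stand apart (0.0312). It also passed in 4 of 19 fits with 1 library left out. Those 4 left out lithium WT female library 3 (limma adjusted p = 0.0441), lithium WT male libraries 3 (0.0448) and 5 (0.0224), and vehicle WT male library 4 (0.0337). In HT mice the libraries were at 29554, 27037, 27214, 26056 and 36544 in lithium females, against 32156, 33963, 31281, 32893 and 31728 in vehicle females. In males they were at 29890.4, 28488, 28155 and 27208 under lithium, against 30269.9, 31969 and 34921 under vehicle. The male groups did not overlap, and among the females only lithium library 5 was not under the lowest vehicle value. Without that library the HT estimate was -0.21 (limma adjusted p = 0.0149), and without the 2 libraries that stand apart it was -0.21 (0.0189). With the GC content and length correction limma called Hsp90aa1 in neither genotype. With that correction and the olfactory covariate together, chosen after seeing the data, it passed in WT mice (0.0129). Mean GC slope in HT males and females was 0.06 and 0.05 under lithium, against -0.07 and -0.04 under vehicle. In WT males and females it was -0.02 and -0.01, against 0.07 and -0.06. The part of the slope was not tested beyond these fits.

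For Hsp90ab1 no comparison passed. Lithium WT females were at 34248 to 41050.2 normalised counts and vehicle WT females at 32023 to 37095, and the estimate for lithium in WT mice was 0.04 ± 0.07 (95% interval -0.10 to 0.17, limma adjusted p = 0.793). The other estimates with the sexes averaged were 0.06 for lithium in HT, 0.05 for fluoxetine in WT and 0.11 for fluoxetine in HT mice. The widest difference was in HT females, where fluoxetine libraries were at 43421, 40081, 40718, 38709 and 43426, against 32328, 34728, 31781, 35366 and 37118 in vehicle libraries. The groups did not overlap, but the estimate of 0.27 ± 0.09 (95% interval 0.09 to 0.45, limma adjusted p = 0.165) did not pass. With the olfactory level as a covariate its limma adjusted p was 0.0286. The highest library of all, at 52234, was lithium HT female library 5.

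**Figure D3:**
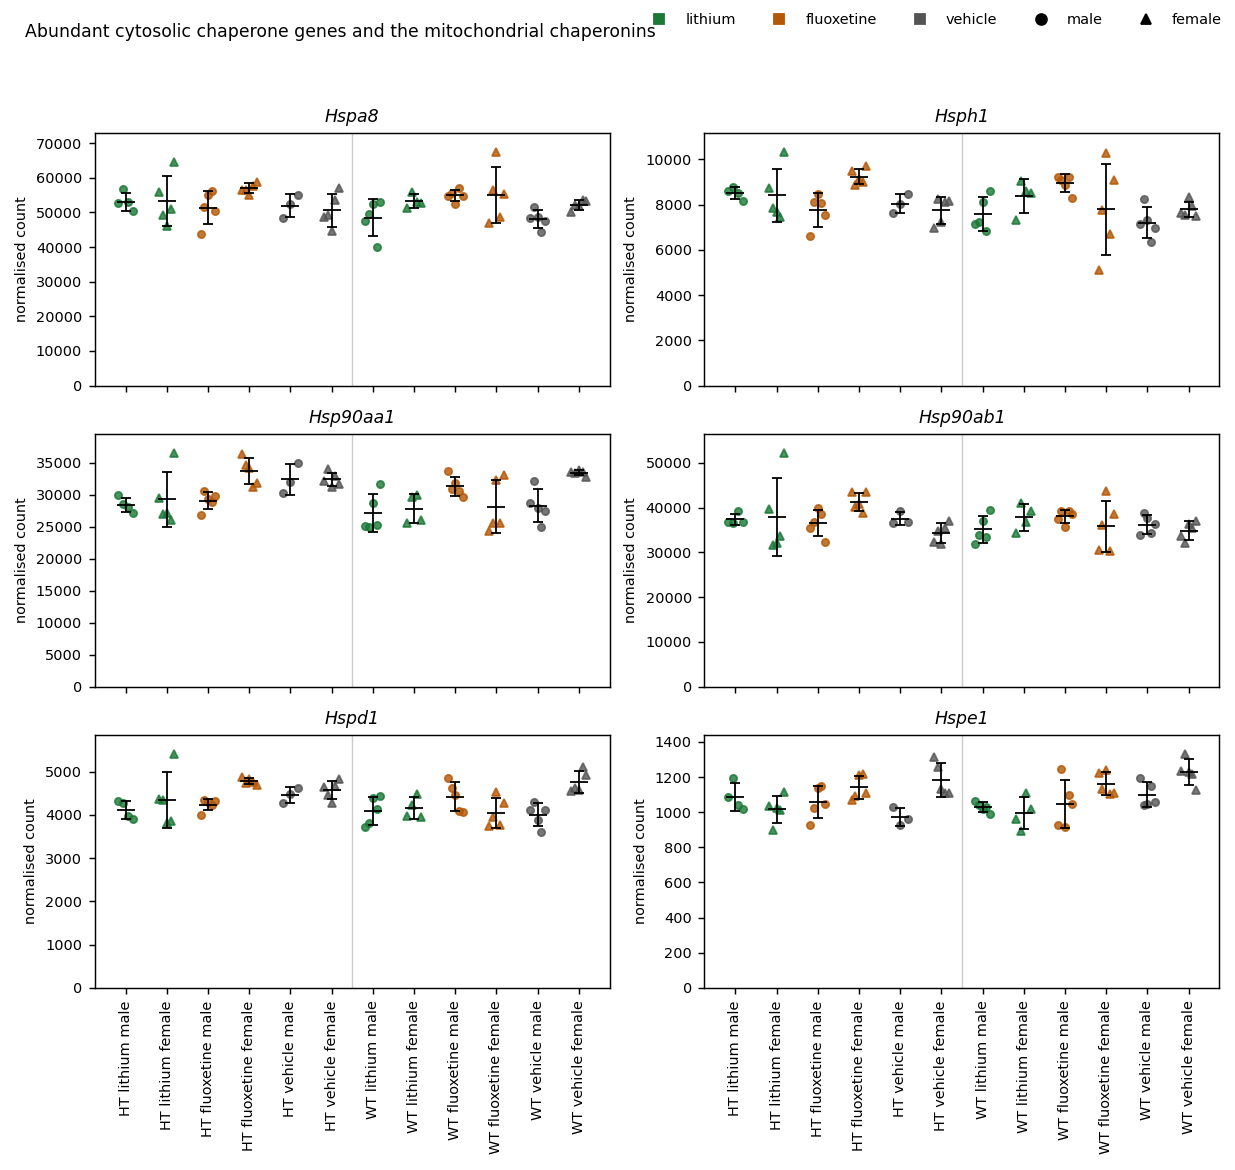
Normalised counts (y axis, starting at 0) of Hspa8, Hsph1, Hsp90aa1, Hsp90ab1, Hspd1 and Hspe1 in the 12 groups. Each circle (male) or triangle (female) is 1 library and black marks give the mean ± SD. Vehicle WT females lie between 32786 and 33944 for Hsp90aa1, above all 4 lithium WT females, whereas the 2 groups overlap for Hsp90ab1.

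Hspb1, whose product binds unfolding proteins without using ATP, was the least expressed by total count and among the most variable. Lithium HT males were at 101, 130.3, 181 and 117 normalised counts, against 61.0, 81.7 and 100.1 in vehicle HT males. Lithium HT females were at 149.5, 142, 115, 154 and 125, against 123, 96.4, 106, 131 and 122 in vehicle HT females. All 4 lithium males lay above all 3 vehicle males, and the female groups overlapped. The estimate was 0.47 ± 0.17 (95% interval 0.12 to 0.82, limma adjusted p = 0.0747) with the sexes averaged. It passed in 4 of 15 alternative settings, among them DESeq2 (adjusted p = 0.0446) and the fit on the compared groups alone (0.0316), and not with the GC content and length correction, at 0.37 (limma adjusted p = 0.208).

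Under fluoxetine Hspb1 spread widely in females. Fluoxetine WT females were at 102, 172, 234, 146 and 127, against 143, 120.1, 94.4, 81.3 and 101 in vehicle WT females. Fluoxetine HT females were at 96.5, 106, 163, 178 and 215, against 96.4 to 131 in vehicle HT females. The highest fluoxetine libraries of both genotypes exceeded all vehicle females while others fell among them. The estimates were 0.50 ± 0.22 (95% interval 0.06 to 0.94, limma adjusted p = 0.13) in WT and 0.33 ± 0.22 (95% interval -0.11 to 0.77, limma adjusted p = 0.62) in HT females. In WT males the estimate was -0.22 ± 0.22 (95% interval -0.66 to 0.23, limma adjusted p = 0.672), and the difference between the sexes, males minus females, was -0.72 ± 0.31 (95% interval -1.34 to -0.09, limma adjusted p = 0.14).

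Hspe1, the co-chaperonin that caps the Hsp60 barrel, was the single gene called with the sexes averaged, and it was lower under lithium in WT mice. Lithium WT females were at 963, 892, 1107 and 1019 normalised counts, against 1237, 1332, 1226, 1215 and 1124 in vehicle WT females. Lithium WT males were at 1063, 1042, 1020.1, 1030.2 and 988, against 1197, 1039, 1049, 1151 and 1056 in vehicle WT males. The female groups did not overlap, and the male groups overlapped, with 3 of 5 lithium males under the lowest vehicle male. The change was -0.20 ± 0.05 (95% interval -0.30 to -0.10, limma adjusted p = 0.00692) with the sexes averaged, a 0.872-fold level. It was -0.30 ± 0.07 (95% interval -0.45 to -0.16, limma adjusted p = 0.00775) in females and -0.09 ± 0.07 (95% interval -0.23 to 0.05, limma adjusted p = 0.577) in males, and the difference between the sexes was 0.21 ± 0.10 (95% interval 0.01 to 0.42, limma adjusted p = 0.556).

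The averaged call held in each of the 19 fits with 1 library left out (limma adjusted p of 0.0275 or less) and in 14 of 15 alternative settings, edgeR and DESeq2 among them. The exception concerned the transcript on which GC content was measured. With the longest protein-coding transcript (774 nucleotides, 51.68% GC) the corrected change was -0.14 (limma adjusted p = 0.0465). With the longest transcript of any type (964 nucleotides, 45.54% GC), an alternative chosen after seeing the data, it was -0.11 and did not pass (0.162). In females the corresponding limma adjusted p was 0.233, and without lithium WT female library 2 it was 0.054. That library carried striatal markers (7 of 7 in the table, none at 0) at 3.17 times the average, the highest of all 56 libraries. Striatal markers summed to 5599 to 11210.2 normalised counts in lithium WT females and 5118 to 6599 in vehicle WT females. With the sexes averaged, limma called 3 of 7 endothelial and mural cell markers and 2 of 7 microglial markers lower under lithium in WT mice. The endothelial and mural markers summed to 9723 to 11483 in lithium WT females and 8410.1 to 11223 in vehicle WT females, and to 8096 to 9504 in lithium WT males and 10537 to 11886 in vehicle WT males. The microglial markers summed to 9087 to 10584 in lithium WT females and 9032 to 10934 in vehicle WT females, and to 8364 to 9687 in lithium WT males and 9725 to 11623 in vehicle WT males. None of either list was at 0, and the part of these markers in the Hspe1 result was not tested.

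In HT mice Hspe1 did not pass with the sexes averaged, at -0.03 ± 0.05 (95% interval -0.14 to 0.08, limma adjusted p = 0.789), and the estimates of the sexes differed in sign. Lithium HT females were at 1035, 897, 1021, 1015 and 1113, against 1317, 1259, 1132, 1108 and 1109 in vehicle HT females. Lithium HT males were at 1088, 1195, 1039 and 1019.9, against 1029, 926 and 963 in vehicle HT males. In females 4 of 5 lithium libraries lay under all vehicle libraries, and in males 3 of 4 lithium libraries lay above all vehicle libraries. The female change was -0.22 ± 0.07 (95% interval -0.36 to -0.08, limma adjusted p = 0.032) and the male estimate 0.16 ± 0.08 (95% interval -0.01 to 0.33, limma adjusted p = 0.501). Their difference, males minus females, was 0.38 ± 0.11 (95% interval 0.16 to 0.60, limma adjusted p = 0.172) and did not pass.

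The call in HT females was the less firm. Its limma adjusted p was 0.112 and 0.0536 without lithium HT female libraries 2 and 4, and 0.103 and 0.0923 without vehicle HT female libraries 1 and 2. It was 0.0625 without the 2 libraries that stand apart and 0.219 with the GC content and length correction. Fluoxetine gave estimates of -0.08 in WT and 0.03 in HT mice, with limma adjusted p of 0.411 and 0.981. The lithium effect in HT minus that in WT mice was 0.17 ± 0.07 (95% interval 0.02 to 0.32, limma adjusted p = 0.479).

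Hspd1, the Hsp60 barrel encoded on the other strand of the same start region, was called in a different comparison. Fluoxetine WT females were at 3734, 3949, 4539.9, 3764 and 4269 normalised counts, against 4564, 4621, 4576, 5113 and 4925 in vehicle WT females. Fluoxetine WT males were at 4860.2, 4632, 4453, 4102 and 4068, against 4111, 4304, 3881, 3615 and 4126 in vehicle WT males. In females every fluoxetine library lay under every vehicle library, and in males the groups overlapped with 3 of 5 fluoxetine libraries above all vehicle ones. The female change was -0.24 ± 0.07 (95% interval -0.37 to -0.10, limma adjusted p = 0.0138), the male estimate 0.14 ± 0.07 (95% interval 0.01 to 0.27, limma adjusted p = 0.289), and the difference, males minus females, 0.38 ± 0.09 (95% interval 0.19 to 0.56, limma adjusted p = 0.0124). The female call was lost without fluoxetine WT female library 4 (limma adjusted p = 0.054), in the fit on the compared groups alone (0.127) and with the GC content and length correction (0.174). The GC slopes and marker levels given for Hsp90aa1 come from the same libraries.

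Under lithium Hspd1 lay lower in WT females, at 3981, 4234, 4477 and 3954, than the vehicle libraries without passing the test, at -0.19 ± 0.07 (95% interval -0.33 to -0.05, limma adjusted p = 0.0852). It passed with the olfactory level as a covariate (limma adjusted p = 0.0345) and without the 2 libraries that stand apart (0.0378). In HT mice the estimate was -0.10 ± 0.05 (95% interval -0.20 to 0.01, limma adjusted p = 0.242), and without lithium HT female library 5, the highest of all 56 at 5411, it was -0.14 (0.0475). In fluoxetine HT mice it was -0.00406 (limma adjusted p = 1).

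None of the 10 genes was called between the genotypes. HT minus WT, the estimates under vehicle ran between -0.19 for Hspa1a and 0.08 for Hsp90aa1 and Hsph1. Of the 10, 0 were called by limma under vehicle (0% of all genes), 0 under lithium (0%) and 0 under fluoxetine (0%), and 1, 0 and 0 had an unadjusted p under 0.05. Neither edgeR nor DESeq2 called any of the 10 in these 3 comparisons, within either sex under vehicle, or in the differences between effects that follow. Within a sex under vehicle 0 were called in males (0.261% of all genes) and 0 in females (0%), with 3 and 0 at an unadjusted p under 0.05. The widest estimate within a sex under vehicle, Hspb1 in males, was -0.44 ± 0.25 (95% interval -0.95 to 0.07, limma adjusted p = 0.49), from 3 HT and 5 WT libraries. Its interval included 0, so it was not among the 3 genes with an unadjusted p under 0.05. The male minus female difference of the genotype effect called 0 (0% of all genes, 2 of the 10 at an unadjusted p under 0.05). The lithium effect in HT minus that in WT mice called 0 of the 10 (0.0166% of all genes, 1 of the 10 unadjusted), and the fluoxetine effect called 0 (0% of all genes, 0 unadjusted). For Hspa1b the fluoxetine effect in HT minus that in WT mice was 0.25 ± 0.27 (95% interval -0.29 to 0.80, limma adjusted p = 1), an interval wide enough to hold sizeable differences in either direction.

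Among 71 further genes of the chaperone network, more were called under lithium than under fluoxetine, although that difference was not tested. The values of these 71 genes come from the main limma fit only. Over all genes, the number called for lithium in HT mice was 1761, and 484 with the GC content and length correction. Which of the 71 would keep their calls in other settings was not examined. Lithium in HT mice had 2 of 71 higher and 9 lower, 15.5% called against 9.77% of all genes, with a median of -0.02. Lithium in WT mice had 7 higher and 6 lower, 18.3% called against 11.7% of all genes, with a median of -0.04. Fluoxetine had 1 higher in WT mice, 1.41% against 5.18%. Under fluoxetine in HT mice, and between genotypes in each treatment, limma called no gene of any kind, these included. Dnajb5, a J-domain protein, was higher under lithium in HT mice at 0.36 ± 0.07 (limma adjusted p = 0.000499), under lithium in WT mice at 0.28 ± 0.06 (0.00269) and under fluoxetine in WT mice at 0.28 ± 0.06 (0.00579). Unc45a, an Hsp90 partner for myosin folding, was higher under lithium at 0.25 ± 0.07 in HT mice (limma adjusted p = 0.0101) and 0.25 ± 0.06 in WT mice (0.00377). Under lithium WT mice also had higher Fkbp5, an Hsp90 partner induced by glucocorticoids, at 0.78 ± 0.13 (limma adjusted p = 6.56e-05), and Cdc37l1, a relative of the kinase co-chaperone Cdc37, at 0.20 ± 0.05 (0.00606).

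The genes that fell under lithium included subunits of the TRiC chaperonin, which folds actin and tubulin. In HT mice 3 of its 8 subunits were lower, Cct6a at -0.21 ± 0.04 (limma adjusted p = 0.00048), Cct4 at -0.19 ± 0.03 (0.000292) and Cct8 at -0.17 ± 0.04 (0.00363), and the median of the 8 was -0.08. In WT mice 2 of 8 were lower, Cct4 at -0.12 ± 0.03 (limma adjusted p = 0.00876) and Cct6a at -0.13 ± 0.04 (0.0131). Bag4, an Hsp70 co-chaperone, was lower in HT mice at -0.28 ± 0.06 (0.00245). Ptges3, the Hsp90 co-chaperone p23, was lower in WT mice at -0.18 ± 0.04 (0.00493). It was also lower in HT mice at -0.17 ± 0.05 (0.0155), given for comparison although it was not among the 4 with the smallest p there. Among the heat shock factors, chosen for mention after their values were seen, Hsf2 was lower in HT mice at -0.23 ± 0.06 (0.0158), while Hsf1 was at 0.16 ± 0.06 (0.0712) and did not pass. Hspb11, which despite its symbol codes for a protein of intraflagellar transport, was lower in WT mice at -0.43 ± 0.08 (0.000385). None of the 9 further mitochondrial chaperone genes was called in the 4 drug comparisons with the sexes averaged, 0 of 9 in each.

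Within groups, many of the 10 genes were high in the same libraries, but Hspe1 and in part Hspb1 stood aside. Correlations were taken over the 56 libraries after the mean of each group was subtracted, and they describe libraries that each carry their own depth and base composition. Over the 45 pairs the median r was 0.57, 23 pairs were above 0.5 and 2 were under 0. Hspa1a and Hspa1b were the most alike (Pearson r 0.94, Spearman rho 0.91, r 0.92 without the 2 farthest libraries), a pair whose reads are hard to assign to one or the other gene. Hspa8 and Hsph1 (Pearson r 0.82, Spearman rho 0.81, r 0.75 without the 2 farthest libraries) and Hsp90aa1 and Hspd1 (Pearson r 0.81, Spearman rho 0.77, r 0.77 without the 2 farthest libraries) came next. Hspe1 had r between 0.01 and 0.34 with the other 9, and with Hspd1, which shares its start region, it was almost unrelated (Pearson r 0.06, Spearman rho -0.04, r -0.01 without the 2 farthest libraries). Hspb1 went with Hspa1a (Pearson r 0.65, Spearman rho 0.65, r 0.68 without the 2 farthest libraries), but its r was -0.07 with Hsp90aa1, 0.13 with Hsp90ab1 and -0.05 with Hspd1. After the GC content and length correction 24 pairs were above 0.5, 3 were under 0 and the median was 0.52.

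**Figure D4:**
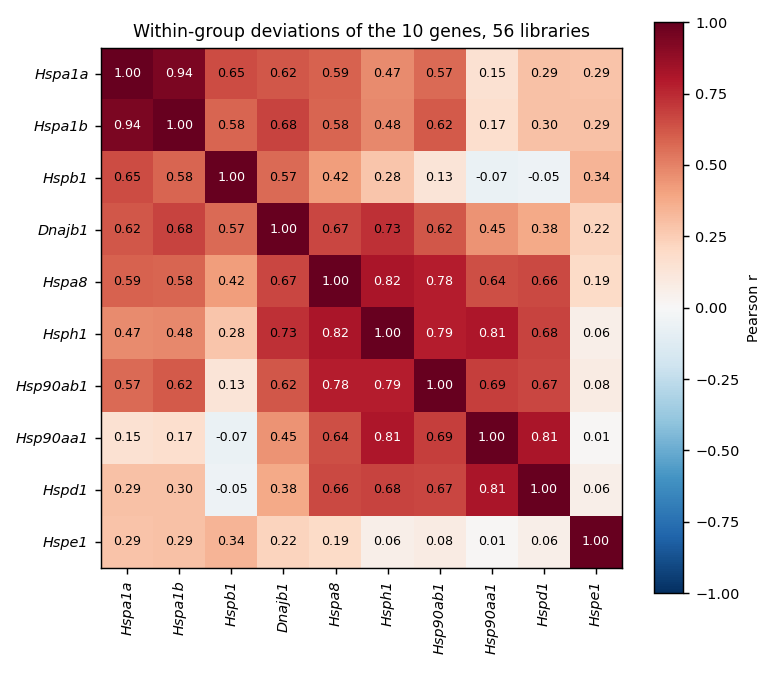
Pearson r between the 10 genes over 56 libraries, computed on log2(normalised count + 1) after subtraction of each group's mean. Darker red means closer likeness. The block of Hspa8, Hsph1 and the 2 Hsp90 genes lies between 0.64 and 0.82, Hspa1a with Hspa1b reaches 0.94, and Hspe1 stands apart from its neighbour Hspd1 at 0.06.

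The genes whose within-group pattern was most like each member were found among 11802 other genes. For Hspa8 they were Ahsa1, Hyou1 and Stip1, the first with Pearson r 0.86, Spearman rho 0.82, r 0.80 without the 2 farthest libraries. For Hsp90aa1 they were G3bp2, Dnaja1 and Ttc3 (Pearson r 0.93, Spearman rho 0.89, r 0.91 without the 2 farthest libraries for the first), and for Hsp90ab1 the closest was App (Pearson r 0.92, Spearman rho 0.89, r 0.89 without the 2 farthest libraries). For Hsph1 they were Mapk11, Sel1l and Jcad (Pearson r 0.87, Spearman rho 0.76, r 0.78 without the 2 farthest libraries). For Dnajb1 they were Cys1, Herpud1 and Abhd8 (Pearson r 0.84, Spearman rho 0.82, r 0.79 without the 2 farthest libraries), and for Hspd1 Dnaja1, Clip1 and Zc3h15 (Pearson r 0.86, Spearman rho 0.89, r 0.85 without the 2 farthest libraries). Dnaja1, a J-domain co-chaperone, was thus among the closest 3 of both Hsp90aa1 and Hspd1. Likeness was lower for the variable genes: Hspa1a with Rhpn1, Cntn2 and Nucb1 (Pearson r 0.76, Spearman rho 0.76, r 0.71 without the 2 farthest libraries), Hspa1b with Ube2g2, Rhpn1 and Ccm2 (Pearson r 0.77, Spearman rho 0.73, r 0.72 without the 2 farthest libraries), and Hspb1 with Sdf2l1, Fam129b and Hsf1 (Pearson r 0.67, Spearman rho 0.65, r 0.62 without the 2 farthest libraries). Hspe1 was nearest to Hdhd2, Fbl and S100a1 (Pearson r 0.65, Spearman rho 0.61, r 0.59 without the 2 farthest libraries).

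Most of the 10 genes ran against the cold-inducible RNA-binding genes within groups. Cirbp and Rbm3 code for proteins whose synthesis rises when temperature drops. All 10 genes had a negative r with Cirbp, ranging between -0.80 for Hsph1 and -0.11 for Hspe1, which was almost unrelated to it (Spearman rho -0.04). For Hsph1 the relation was Pearson r -0.80, Spearman rho -0.68, r -0.71 without the 2 farthest libraries, for Dnajb1 it was Pearson r -0.72, Spearman rho -0.63, r -0.64 without the 2 farthest libraries, and for Hspa8 it was Pearson r -0.68, Spearman rho -0.63, r -0.62 without the 2 farthest libraries. All 10 were negative with Rbm3 as well, between -0.68 for Hspa8 and -0.18 for Hspe1, and weakly so for Hspd1 (Pearson r -0.23, Spearman rho -0.13). The share of all genes with a negative r to Cirbp or Rbm3 was not examined, so these counts do not set the 10 genes apart. The values are given without the GC content and length correction. Between groups, among genes named after their values were seen, Rbm3 was lower under lithium in HT mice at -0.32 ± 0.10 (limma adjusted p = 0.0246) and Cirbp was lower under lithium in WT mice at -0.27 ± 0.09 (0.048). Each was called in that genotype only, as 1 of 3 listed genes, and Srsf5, the third, in neither. The median of the 3 was -0.22 in HT and -0.04 in WT mice. Mean Rbm3 was 3441 in lithium and 3050 in vehicle WT males, but 2669 and 3140 in WT females.

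**Figure D5:**
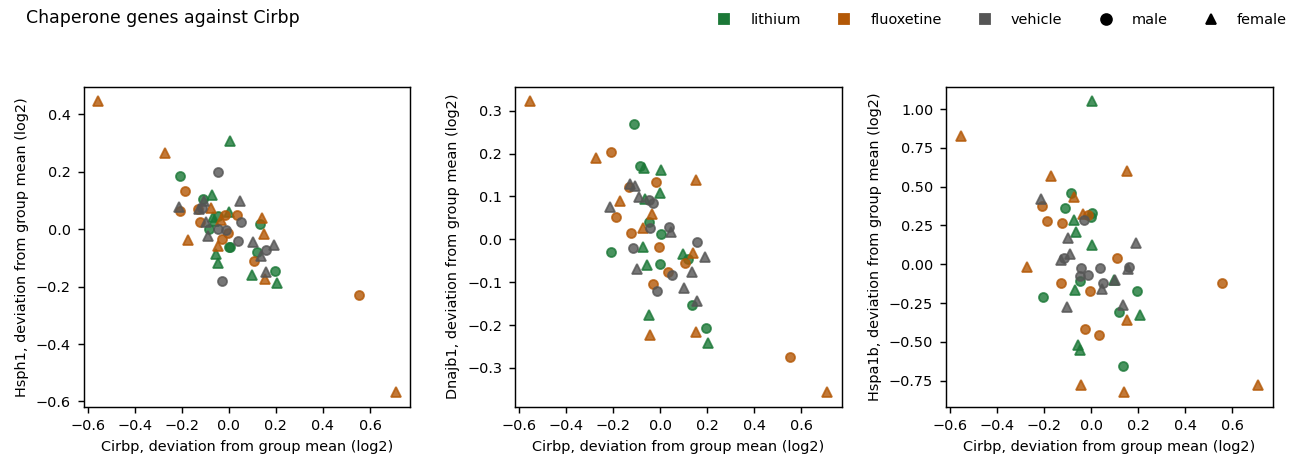
Deviation of Hsph1, Dnajb1 and Hspa1b (y axis, log2) against the deviation of Cirbp (x axis, log2) from the mean of the same group, 1 point per library, 56 libraries. Libraries with more Cirbp have less of each gene, closely for Hsph1 (r -0.80) and more loosely for Hspa1b (r -0.46).

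Other measures of the libraries followed particular genes. The GC slope went with Hspa1a (Pearson r 0.63, Spearman rho 0.63, r 0.55 without the 2 farthest libraries) and Hspa1b (Pearson r 0.64, Spearman rho 0.63, r 0.56 without the 2 farthest libraries), whose transcripts hold 58.95% and 58.12% GC, whereas r was negative for Hsp90aa1 (Pearson r -0.07, Spearman rho -0.23, r -0.32 without the 2 farthest libraries), whose transcript holds 43.74%. The order of r did not follow GC content throughout. Hspb1, at 61.72% GC, had r 0.40 with the slope, less than Hsp90ab1 at 51.03% (r 0.53) and Hspa8 at 51.21% (r 0.46). Myelin markers also went with Hspa1a (Pearson r 0.61, Spearman rho 0.58, r 0.53 without the 2 farthest libraries). The olfactory level ran against Hsp90ab1 (Pearson r -0.65, Spearman rho -0.62, r -0.63 without the 2 farthest libraries) and Hsph1 (Pearson r -0.59, Spearman rho -0.54, r -0.57 without the 2 farthest libraries), and the level of excitatory neuron markers went with Hsph1 (Pearson r 0.69, Spearman rho 0.66, r 0.67 without the 2 farthest libraries). Mitochondrially encoded transcripts had a negative r with all 10 genes, the most so for Hsp90ab1 (Pearson r -0.45, Spearman rho -0.22, r -0.13 without the 2 farthest libraries), but without the 2 farthest libraries the sign turned for Hsp90aa1 (Pearson r -0.22, Spearman rho 0.01, r 0.07 without the 2 farthest libraries) and Hsph1 (Pearson r -0.17, Spearman rho -0.16, r 0.03 without the 2 farthest libraries), and the negative values rest partly on those libraries. Immediate early genes, the transcripts that neurons make within minutes of firing, had r between -0.23 and 0.19 with the 10 genes. The part of these measures in the differences between groups was not tested beyond the corrected fits given above.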

How the data were processed

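RNA-seq of mouse prefrontal cortex was deposited as 1 table of gene values, from strand-specific libraries (TruSeq Stranded mRNA) per the labels' protocols. Per the submitters' processing notes Salmon 0.11.2, R 3.6.0, DESeq2 1.19.11 and the GRCm38 build were used, with no role or order given. The deposited values are a signal, gene counts that the authors divided by 1 size factor per library: each library's values were whole multiples of its smallest step (100.0% of values, tolerance 1e-06), and whole reads were recovered from these steps. Of 59 library columns 56 were used and 3 matched no sample. Of 57 labelled samples, 1 lithium WT female had no column and is not analysed here. Of 18088 genes, 18077 had a symbol.

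Tests covered the 18026 genes reaching 10 in 3 or more libraries, on log2(value + 1), a scale that understates the change of low genes, with limma 3.58.1 in R 4.3.3 (empirical Bayes with a mean trend, 12 group means, 44 residual degrees of freedom, 24 contrasts). P-values were adjusted by the Benjamini-Hochberg method over all genes tested. Standard errors and 95% intervals come from the same fit. edgeR 4.0.16 and DESeq2 1.42.0 on recovered reads were alternatives, with another scaling, filter, pseudocount of 5, weights, block, covariate, base composition correction (splines with 4 degrees of freedom), and libraries left out. The fits were tested on simulated data. Precision rests on 22984556 to 35969254 reads per library. Marker levels are means over the markers of a list, each relative to its average over the 56 libraries. All 10 chaperone genes are named. From other lists up to 4 called genes per direction and comparison with the smallest p are named, and for each chaperone gene the 3 genes of mean value at least 100 closest in r, of which some for Hsp90ab1 are not reported here. The genes and lists were chosen with earlier results of these data known.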

Additional observations from a re-analysis of the deposited data

Results flagged for a closer look

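Of 110 groups of 4 or 5 libraries examined, 1 for each gene and group, 2 had a library far from the rest, and chance alone would set apart about 1 group in 20. Hspa1b was at 263 normalised counts in vehicle WT male library 4, against 199 to 213 in the other 4 of its group. Hsp90ab1 was at 39219.9 in lithium HT male library 3, against 36631 to 36791 in the other 3. Between the sexes, the fluoxetine effect in WT mice, males minus females, differed by 0.41 for Hsp90aa1 (limma adjusted p = 0.0207) and by 0.38 for Hspd1 (limma adjusted p = 0.0124). Neither difference passed with the GC content and length correction.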

How the results depend on the processing

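No result changed direction while called, and in the 24 comparisons the number of the 10 genes called was as in the report, or within 1.5 times of it, in 316 combinations of comparison and alternative setting and differed in 44. The 44 are given here as the number called, and the cause was not tested.

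With array weights 3 genes were called for lithium in HT, 3 for lithium in WT, 2 for fluoxetine in HT and 2 for fluoxetine in WT mice, 1 for lithium in HT males, 3 in lithium HT females, 4 in fluoxetine HT females and 1 in fluoxetine WT males, and for the sex differences 1 for lithium in HT and 4 for fluoxetine in WT mice. In the fit on the compared groups only, 1 was called for lithium in HT, 3 for lithium in WT mice, 0 in lithium HT females, 1 in lithium WT females, 0 in fluoxetine WT females and 1 for the sex difference of fluoxetine in WT mice. With the olfactory covariate 2 were called for lithium in HT, 2 for lithium in WT mice and 3 in fluoxetine HT females. With the GC content and length correction 0 were called in lithium HT females, 1 in lithium WT females, 0 in fluoxetine WT females and 0 for the sex difference of fluoxetine in WT mice. Together with the olfactory covariate, chosen after seeing the data, the correction gave 2 for lithium in WT mice, 0 in lithium HT females, 2 in fluoxetine HT females, 0 in fluoxetine WT females and 0 for that sex difference. With the longest transcript of any type, also chosen after seeing the data, it gave 0 for lithium in WT mice, 0 in lithium HT females, 0 in lithium WT females, 0 in fluoxetine WT females and 0 for that sex difference. Without the 2 libraries that stand apart, 1 was called for lithium in HT, 2 for lithium in WT mice and 0 in lithium HT females. TMM factors gave 2 for lithium in WT mice. edgeR gave 2 for lithium in WT mice and 2 in fluoxetine HT females. DESeq2 gave 3 for lithium in HT, 2 for lithium in WT mice, 3 in lithium HT females and 2 in fluoxetine HT females.

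With 1 library left out at a time the number called ranged over 0 to 2 for lithium in HT, 1 to 2 for lithium in WT, 0 to 2 for fluoxetine in WT mice, 0 to 2 in lithium HT females, 1 to 2 in lithium WT females, 0 to 2 in fluoxetine HT females, 0 to 2 in fluoxetine WT females and 1 to 3 for the sex difference of fluoxetine in WT mice. That sex difference had 1 without fluoxetine WT female library 1 or 2, fluoxetine WT male library 1 or vehicle WT male library 4, and 3 without fluoxetine WT female library 3 or 5. It was 0 throughout in the other comparisons.

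The replicate block called 2 genes in fluoxetine HT females, against 0 without it. Same-numbered libraries of different groups had a median r of -0.0027 over 289 pairs, 67 of them above 0.1. The median was -2.92e-05 for pairs with different numbers. By the median the numbers thus did not pair the samples across the series. A pooled median cannot exclude pairs or shared litters in some of the groups.

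Over all genes, lithium in HT mice called 1761, against 3452 with array weights, 2954 under the olfactory covariate, 484 under the GC content and length correction and 509 with the longest transcript of any type. Lithium in WT mice called 2109, against 3349 (array weights) and 3456 (olfactory covariate). Fluoxetine in WT mice called 933, against 421 on the compared groups only, 2877 for array weights, 2871 for the olfactory covariate, 494 for the correction, 2581 with both and 476 with the longest transcript of any type. Fluoxetine in HT mice called 0, against 163 with array weights and 16 with DESeq2. HT against WT called 0 under each treatment. Under vehicle it called 1 on the compared groups only, 2 with array weights, 1 with edgeR and 5 with DESeq2. Under lithium it called 81 for array weights, 1 for the olfactory covariate, 15 with DESeq2 and 2 with both corrections. Under fluoxetine it called 1071 for array weights, 12 for the olfactory covariate, 1 with edgeR, 18 with DESeq2 and 7 with both corrections.

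Hspb1 rested on as few as 52 reads in a library, which limits its precision, and the division of reads between Hspa1a and Hspa1b could not be checked from gene totals. Groups of 3 or 4 libraries, vehicle HT males first among them, give the widest intervals.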
